A study of Mus musculus with 6 samples.

Results

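Target genes of the FGF, TGF-beta, WNT and NOTCH pathways were taken from a table of miRNA-target hybrids made by AGO2 CLASH in P19 cells. They were chosen by name, as Il17rd, Nodal and every gene whose symbol is one of 17 family stems (Tgfbr, Acvr, Bmp, Bmpr, Smad, Smurf, Lefty, Wnt, Fzd, Axin, Lrp, Fgf, Fgfr, Spry, Spred, Dusp or Notch) followed by a number, and 48 of the 3200 target genes in the table met this rule. These 48 genes held 236 of 15680 hybrid reads. P19 is a mouse embryonic carcinoma line derived from a teratocarcinoma. In CLASH, cells are irradiated with UV light, AGO2 is pulled down with an antibody, and each miRNA is ligated to the piece of mRNA bound beside it in AGO2 before sequencing, so that 1 read, here called a hybrid, names a miRNA and its target. There were 3 biological replicates of WT cells, with the genotype Dicer (+/+), and 3 of HM cells, with the genotype Dicer (HM/-). HM cells carried the RNase IIIb hotspot change E1797G on 1 Dicer1 allele and a loss-of-function change on the other, and came through a clonal heterozygous knockout line, so the genotypes also differ by that clonal history. Hybrid counts do not read the Dicer1 allele itself.

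The RNase IIIb domain of Dicer makes the cut that frees the 5p strand of a miRNA precursor, and the 3p strand is freed by the other RNase III domain. Fibroblast growth factors act through receptor tyrosine kinases on the RAS-ERK cascade, and this cascade switches on its own inhibitors, among them the Sprouty and Spred proteins, the dual-specificity phosphatases (Dusp) and Il17rd, a membrane protein also known as Sef. Nodal, activin, TGF-beta and bone morphogenetic proteins bind paired type I and type II receptor kinases that phosphorylate Smad proteins, and Lefty1, Smad7, Smurf1 and Smurf2 dampen that signal. Both pathways are known to set the choice between pluripotency and differentiation in early embryonic cells. miRNAs bind mRNAs mainly through their seed, which is bases 2 to 8 of the mature strand.

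The hybrids of these genes were led by a few miRNAs of 4 seeds, given as RefSeq mature strands (assembly GRCm38.p6), 5′ to 3′, with the seed in capitals. The first 5 lines are strands of the miR-17 family, which share 1 seed and lie on the 5p arm. The 3 lines after them hold the seed of miR-302b-3p, miR-302d-3p and miR-294-3p, which miR-302a-3p and miR-291a-3p share in this table and which is here called the miR-302 seed. It is offset by 1 base from that of the miR-17 family, so that a site GCACTT can pair with both, and miR-302c-3p, whose strand starts 1 base later, was not counted with it. The last 3 lines belong to the seed of miR-25-3p, miR-92a-3p, miR-363-3p and miR-367-3p, here called the miR-367 seed, and to that of miR-130a-3p, miR-130b-3p and miR-301a-3p, here called the miR-130a seed.
miR-20b-5p: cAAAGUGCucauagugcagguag
miR-93-5p: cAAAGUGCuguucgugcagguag
miR-106a-5p: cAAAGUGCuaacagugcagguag
miR-17-5p: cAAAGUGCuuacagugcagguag
miR-20a-5p: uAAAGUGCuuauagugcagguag
miR-302b-3p: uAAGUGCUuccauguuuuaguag
miR-302d-3p: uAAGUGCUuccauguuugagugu
miR-294-3p: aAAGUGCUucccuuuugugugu
miR-367-3p: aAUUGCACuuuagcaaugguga
miR-130a-3p: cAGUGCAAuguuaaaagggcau
miR-301a-3p: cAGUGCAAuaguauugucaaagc

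Target fragments that carry the results are shown next, each read from 1 hybrid in the sense of the mRNA, with capitals marking the bases that pair with bases 2 to 7 or 2 to 8 of the miRNA it was ligated to. The first 3 come from the main site on Il17rd and the fourth from a site on the same gene that was found in HM cells. The pairs of Tgfbr2 and Fzd3 fragments show sites that were joined to different miRNAs in WT and HM cells. The Fgf5 fragment holds no run that pairs with bases 2 to 7. In the Acvr2b and Lefty1 fragments the capitals mark GCTCTT, which differs by 1 letter from the GCACTT that the miR-302 seed pairs with.
Il17rd, WT, miR-17-5p: tagagtctaagcatcgcCACTTTagctgc
Il17rd, WT, miR-93-5p: agagtctaagcatcgtCACTTTagctgc
Il17rd, HM, miR-20b-5p: ttctaagcatcgcCACTTTagctgctga
Il17rd, HM, miR-302c-3p: tggcagaatggtAAGCACTgac
Fgf5, WT, miR-93-5p: ctctactacagcatcgtttactttatt
Fgf4, HM, miR-302b-3p: caggaggAGCACTTtctctcgatggagaa
Tgfbr2, HM, miR-302b-3p: atcaaaacctaaAGCACTTattt
Tgfbr2, WT, miR-93-5p: aataacgtttGCACTTTattaatgc
Tgfbr2, HM, miR-302d-3p: caataacgtttGCACTTtat
Fzd3, WT, miR-20b-5p: atgtttttcttaGCACTTTaactg
Fzd3, HM, miR-27b-3p: gtttttcttagcactttaACTGTGAgtgt
Acvr2b, HM, miR-302a-3p: aaccactaaggaatgtaGCTCTTtcgctg
Lefty1, HM, miR-302b-3p: atccctgtgtgtGCTCTTtgcttcct

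Depth set what could be tested. Total hybrid reads were 1929, 2331 and 1621 for the WT replicates and 1661, 5341 and 2797 for the HM replicates. Summed over libraries, HM cells thus had more reads than WT cells. Read sums given per genotype below are not scaled for this, so a larger HM sum need not be a higher level. Of the 48 genes, 16 had 1 read, 25 had 2 to 9 and 7 had at least 10, and only these 7 entered the test across target genes. The limit that a count of 0 allows, 3 reads, was 0.0562% to 0.185% of the hybrids of a library, and every interval and floor covers counting error only. miRNAs of the pluripotent miR-290 to miR-295 and miR-302 and miR-367 hairpins made up 34.5% to 38.7% of hybrids in WT libraries and 56.9% to 59.1% in HM libraries, and 12 of their 13 hairpins had a hybrid. Neural miRNAs (miR-9, miR-124, miR-128) had 14 reads in all, those of endoderm (miR-122, miR-375) had 4, and those of muscle and blood had none. Whole hybrid sequences shared by a pair of libraries were 1.59% to 5.02% of either library for HM pairs, 1.05% to 1.85% for WT pairs and 0.647% to 2.48% for pairs of different genotype, with the highest share between HM libraries 1 and 2 (81 sequences). Hybrids weigh both the level of an mRNA and its binding by AGO2, and these cannot be told apart here.

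The signalling genes took a larger part of the hybrids in WT than in HM cells. They held 1.81%, 2.32% and 1.91% of the hybrids of the WT libraries and 1.26%, 1.16% and 1.18% of those of the HM libraries, so the lowest WT library lay above the highest HM library. No test was made of this share, as the genes were chosen with earlier results known. The means were 2.01% ± 0.266 and 1.20% ± 0.0551 (SD, n = 3 each). Il17rd and Spry4 accounted for 52 of the 120 WT reads on these genes, or 43.3%. Over the other 46 genes the share was 1.14% ± 0.268 in WT and 1.09% ± 0.0428 in HM libraries, a difference of -0.041 percentage points against -0.81 with both genes. Of the 48 genes, 23 had hybrids in both genotypes, 6 in WT alone and 19 in HM alone, and most of those found in 1 genotype had 1 or 2 reads. Per library, 17, 21 and 12 of the genes had a hybrid in WT and 14, 30 and 23 in HM cells. Over all target genes the numbers were 991, 1130 and 869 in WT and 907, 1869 and 1228 in HM libraries. Both counts followed the order of total reads per library. The split by genotype was not tested or set against that of all genes.

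Genes of the FGF-ERK pathway held the most hybrids in WT cells and TGF-beta superfamily genes the most in HM cells. The 14 FGF-ERK genes had 23, 31 and 16 reads across WT libraries and 4, 18 and 12 in HM libraries, which is 11.7 ± 1.73 and 3.36 ± 0.941 per 1000 hybrids. Their levels did not overlap between genotypes. The 17 TGF-beta superfamily genes had 6, 13 and 11 reads across WT and 10, 36 and 12 in HM libraries, or 5.16 ± 1.87 and 5.68 ± 1.26 per 1000 hybrids, with overlapping libraries. The 9 WNT genes had 2.45 ± 0.856 and 1.97 ± 0.957 per 1000 hybrids. The NOTCH pathway was represented by 1 read, on the receptor Notch2 in HM library 3, joined to miR-466i-5p. The remaining 7 genes, Bmp2k, Fgfr1op2, Lrp2, Lrp4, Lrp8, Lrp11 and Notch2nl, meet the rule by name without being known core components of these pathways, and they had 5 reads across WT and 7 in HM cells.

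**Figure D1:**
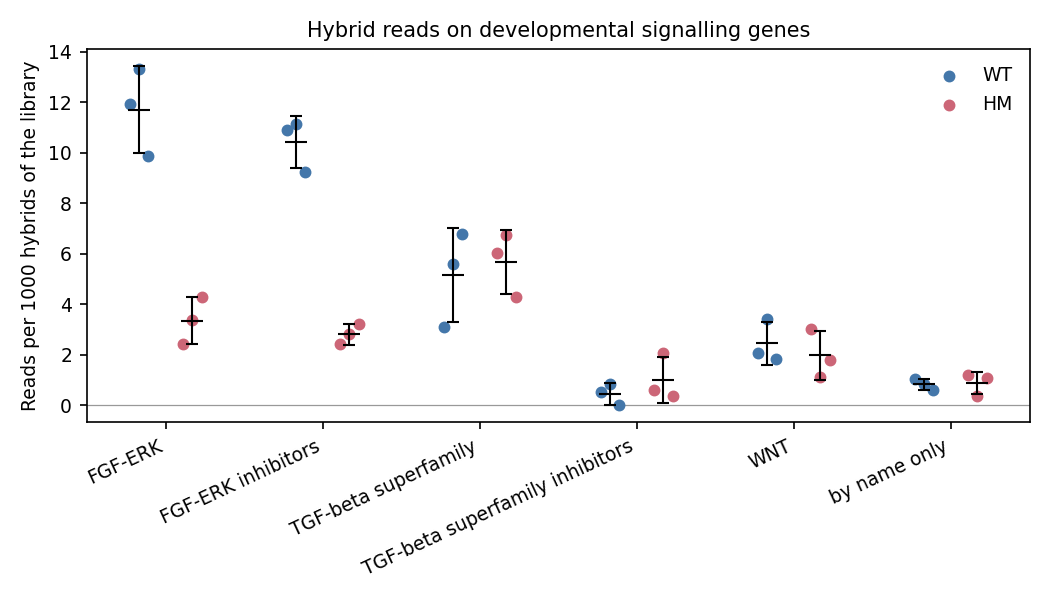
Hybrid reads per 1000 hybrids of the library (y axis) for each pathway group, with 1 point per library, the mean as a horizontal mark and the SD as the bar (n = 3). WT and HM libraries are separate for FGF-ERK genes and for their feedback inhibitors, at 10.4 and 2.81 per 1000 on average for the inhibitors, and overlap for TGF-beta superfamily and WNT genes.

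The feedback inhibitors were where the FGF-ERK hybrids lay. The 11 FGF-ERK inhibitors had 21, 26 and 15 reads across WT libraries and 4, 15 and 9 in HM libraries, or 10.4 ± 1.03 and 2.81 ± 0.405 per 1000 hybrids. In WT cells, 51 of their 62 reads joined a 5p-miRNA, and in HM cells 26 of 28 joined a 3p-miRNA. The miR-17 family gave 44 of the WT reads and 2 of the HM reads on these inhibitors, whereas the miR-367 seed gave 3 and 10. Together with the 4 inhibitors of the TGF-beta superfamily, which had 3 reads across WT and 13 in HM cells, feedback inhibitors took 54.2% of the WT reads and 35.3% of the HM reads on signalling genes. Without Il17rd and Spry4 the order of these pooled shares turned. Inhibitors then had 13 of 68 WT reads (19.1%) and 31 of 106 HM reads (29.2%). Much of the HM side came from HM library 2, where Spred1 had 6 reads, Lefty1 5 and Smad7 4. The turned order was not checked library by library. Without Il17rd and Spry4, the FGF-ERK genes had 18 reads across WT and 24 in HM cells, sums that are not scaled for depth.

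Il17rd, which restrains signalling from FGF receptors to ERK, was the most frequent target among the 48 genes. It had 12, 11 and 11 reads across WT replicates 1 to 3 and 2, 5 and 3 across the HM replicates, or 5.91 ± 1.07 and 1.07 ± 0.134 per 1000 hybrids, with no overlap. It fell in HM cells by 2.45 on the log2 scale (SE 0.55, edgeR quasi-likelihood adjusted p = 0.000378). Its miRNAs differed between genotypes, from 32 reads of 5p-miRNAs and 1 of a 3p-miRNA in WT cells to 2 and 8 in HM cells. Counted by seed, hybrids of Il17rd with the miR-17 family numbered 12, 10 and 10 across WT libraries and 1, 0 and 1 across HM libraries (log2 fold change -4.44, SE 0.74, edgeR adjusted p = 1.11e-07). Its leading single partner, miR-20b-5p, fell from 4, 6 and 4 reads to 0, 0 and 1 (log2 fold change -4.01, SE 1.01, edgeR adjusted p = 0.000973). Outside the 48 genes the miR-17 family fell from 32.2% ± 1.62 of WT hybrids to 1.70% ± 0.178 of HM hybrids. The fall of this family was thus not particular to Il17rd.

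Of the 34 WT hybrids of Il17rd, 31 came from 1 site. Fragments were put in the same site when they shared a run of 10 bases, and 33 of the 44 Il17rd reads fell in the site of the first 3 fragments above, with 12, 9 and 10 reads across WT libraries and 1, 0 and 1 across HM libraries. All 33 held a match to bases 2 to 7 of their miRNA, and all were joined to strands of the miR-17 family. The fragments came in 2 forms that differ at the base just before the match. One, with catcgc before it, had 18 reads (5, 5 and 6 in WT, 1, 0 and 1 in HM libraries). The other, with catcgt, had 11 reads (6, 1 and 4 in WT and 0 in each HM library), and 4 reads held neither. Both forms were present in every WT library, and the 2 HM reads are too few to compare them between genotypes. The HM hybrids lay elsewhere: 3 reads, 1 from each HM library, came from a second site with miR-302c-3p or miR-367-3p, and 2 came from another site with miR-17-3p, the strand that lies opposite miR-17-5p in its precursor. Neither of those sites had a WT read.

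Spry4, a Sprouty inhibitor of RAS-ERK signalling, had 6, 10 and 2 reads across WT libraries and none in any HM library. Set against a floor of 3 reads per HM library it was at least 2.51-fold lower in HM cells, and edgeR's quasi-likelihood test called it lower (adjusted p = 1.91e-05). Without WT library 2, which held 10 of its 18 reads, it had too few reads to be tested. Its hybrids with the miR-17 family numbered 3, 6 and 2 across WT libraries and none in HM libraries, and this combination was at least 1.56-fold lower in HM cells (edgeR adjusted p = 0.000627). With any 1 WT library left out, the combination had too few reads to be tested. The other WT reads included 2 with miR-16-5p and 2 with miR-130a-3p. The largest Spry4 site held 8 WT reads from all 3 libraries, with miR-17-5p, miR-20b-5p, miR-93-5p and miR-106a-5p. Of these 8 reads, only 1 held a match to bases 2 to 7 of its miRNA in the fragment. Of all 11 Spry4 reads with the miR-17 family, 3 held such a match.

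Across all target genes with at least 10 reads, edgeR called 57 of 344 at an adjusted p under 0.05 (16.6%), 37 of them lower (10.8%) and 20 higher (5.81%) in HM cells. Scaled to the total of 3p hybrids, 68 were lower and 1 higher, and DESeq2 called 13 lower and 1 higher. Among the signalling genes, 2 of 7 were called, Il17rd and Spry4, both lower, and none was called higher or had an unadjusted p under 0.05 in that direction. The median log2 fold change was -0.68 over the 7 and 0.27 over all 344. Libraries of the 2 genotypes were separate for 3 of the 7, Il17rd, Spry4 and Tgfbr2, beside 30.8% of all genes tested. Of the gene and seed combinations, 63 of 235 were called (26.8%, with 17% lower and 9.79% higher), and 2 of the 4 on signalling genes, those of Il17rd and Spry4 with the miR-17 family. Of the gene and miRNA pairs, 33 of 140 were called (23.6%, with 9.29% lower and 14.3% higher), and Il17rd with miR-20b-5p was the only pair of a signalling gene with enough reads to test.

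**Figure D2:**
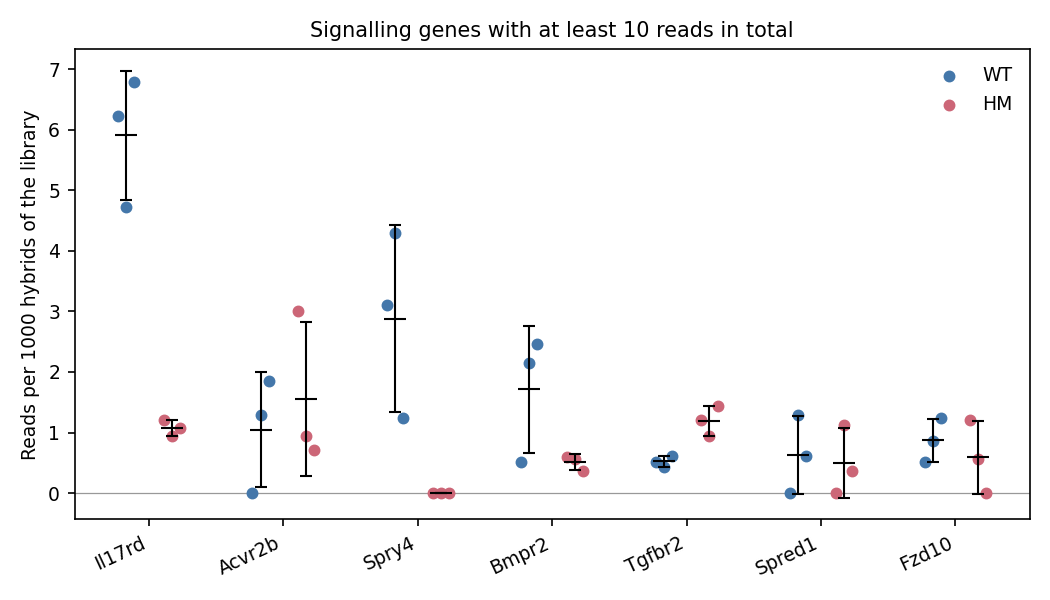
Hybrid reads per 1000 hybrids of the library (y axis) for the 7 signalling genes with at least 10 reads, with 1 point per library, the mean as a horizontal mark and the SD as the bar (n = 3). Il17rd and Spry4 are higher in all WT libraries than in any HM library, Tgfbr2 is lower in all WT libraries, and the other genes overlap.

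Other FGF-ERK inhibitors were bound more thinly, and mostly by other miRNAs. Spred1, a Sprouty-related inhibitor of RAS activation, had 0, 3 and 1 reads across WT and 0, 6 and 1 in HM libraries, and did not pass the test (log2 fold change 0.03, SE 0.95, edgeR adjusted p = 0.978), with a sign that changed with the scaling. Its leading seed was the miR-302 seed, with 1 WT and 4 HM reads. The 6 Dusp genes, which encode dual-specificity phosphatases, had 5 reads across WT and 9 in HM cells. Dusp6, which dephosphorylates ERK, had no WT read and 1, 1 and 2 reads in HM libraries, all with miR-367-3p, and 3 of these came from 1 site without a match to the seed in the fragment. Dusp4 had 1 read with miR-367-3p at the same site in each genotype. Dusp2 had 2, 1 and 0 reads across WT and 0, 0 and 1 in HM libraries. Dusp1, Dusp5, Dusp7, Spred2 and Spry3 had 1 or 2 reads each.

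On the FGF ligands Fgf4, Fgf5 and Fgf19, the miR-17 family gave 6 reads in WT and none in HM cells, and the miR-302 seed gave 2 and 4. Fgf5, a ligand that marks the primed state of pluripotent cells, had 1, 3 and 1 reads across WT libraries and 0, 1 and 1 in HM libraries. All 5 WT reads came from 1 site and joined miR-20b-5p, miR-93-5p or miR-106a-5p, although the fragments held no match to bases 2 to 7, whereas the 2 HM reads came from other sites, with miR-103-3p and miR-376b-3p. Fgf4, an autocrine ligand of pluripotent cells, had 1, 1 and 0 reads across WT and 0, 1 and 2 in HM libraries. All 5 came from 1 site that holds GCACTT, and they joined miR-20a-5p or miR-302d-3p in WT and miR-302b-3p in HM cells. Fgf19, a symbol that matched no mouse RefSeq gene, had 1 read in each genotype, so the gene these reads come from is uncertain. These ligands had too few reads to be tested.

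Receptors of the TGF-beta superfamily were joined most often to the miR-302 seed. Over its 9 receptor genes, hybrids with this seed numbered 8 in WT and 21 in HM cells, while those with the miR-17 family numbered 7 and 0. Acvr2b, a type II receptor for activin and Nodal, had 0, 3 and 3 reads across WT and 5, 5 and 2 in HM libraries. It did not pass the test (log2 fold change 0.27, SE 0.80, edgeR adjusted p = 0.862), and its sign changed with the scaling. Tgfbr2, the type II receptor for TGF-beta, had 1 read in each WT library, against 2, 5 and 4 in HM libraries. Per 1000 hybrids this was 0.521 ± 0.0940 and 1.19 ± 0.247 with no overlap, but it did not pass the test (log2 fold change 1.08, SE 0.97, edgeR adjusted p = 0.525). Bmpr2, the type II receptor for bone morphogenetic proteins, had 1, 5 and 4 reads across WT and 1, 3 and 1 in HM libraries (log2 fold change -1.65, SE 0.85, edgeR adjusted p = 0.214), and scaled to 3p hybrids it was called lower (log2 fold change -2.66, edgeR adjusted p = 0.0129).

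With the miR-302 seed alone, Tgfbr2 had 1, 1 and 0 reads across WT and 2, 5 and 2 in HM libraries (log2 fold change 1.33, SE 1.08, edgeR adjusted p = 0.379), and Acvr2b had 0, 2 and 3 against 4, 5 and 0 (log2 fold change 0.12, SE 0.94, edgeR adjusted p = 0.917). All 11 Tgfbr2 reads of this seed held a match to bases 2 to 7, and none of the 14 Acvr2b reads did. Among 3p hybrids only, scaled to the total of 3p hybrids, edgeR called 5 of 262 genes (1.91%) and none of the 3 signalling genes tested, none with an unadjusted p under 0.05 and none with DESeq2. There Acvr2b had a log2 fold change of -0.49, Tgfbr2 of 0.63 and Fzd10 of -1.68. Acvr1, a type I receptor, had no WT read and 1, 2 and 1 reads in HM libraries, and Tgfbr1, the type I receptor for TGF-beta, had 0, 1 and 3 against 0, 2 and 0. Acvr1b, Acvr2a, Bmpr1a and Bmpr1b had 1 or 2 reads each.

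Antagonists of Nodal and TGF-beta signalling had few hybrids, and 11 of their 13 HM reads came from HM library 2. Lefty1, a secreted antagonist of Nodal, had no WT read and 1, 5 and 0 reads in HM libraries, all with miR-302a-3p or miR-302b-3p. Of these, 4 came from 1 site in HM library 2 alone. Smad7, an inhibitory Smad, had 1, 2 and 0 reads across WT and 0, 4 and 0 in HM libraries, and 5 of the 7 came from 1 site with miR-367-3p or miR-363-3p. Smurf1 and Smurf2, ubiquitin ligases that act on the receptors and Smads, had 1 and 2 reads, all in HM cells. The signal-carrying Smad2 had 1, 1 and 0 reads against 0, 2 and 2, and Smad3 and Smad5 had 1 HM read each. Nodal itself had 1 read, in HM library 2, with miR-300-3p, a strand of an imprinted miRNA cluster that the study describes as silenced in the HM line.

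WNT hybrids lay on Frizzled receptors. Fzd10 had 1, 2 and 2 reads across WT and 2, 3 and 0 in HM libraries (log2 fold change -0.68, SE 1.03, edgeR adjusted p = 0.729), with the miR-302 seed leading at 3 WT and 4 HM reads. Fzd3 had 1, 1 and 0 reads against 1, 0 and 2, and Fzd7 had 1, 2 and 0 against 0, 1 and 1. Fzd4, Fzd5 and Fzd6, the co-receptor Lrp6 and the ligands Wnt3 and Wnt5a had at most 3 reads each. On the Frizzled receptors and Lrp6, the miR-17 family gave 4 reads across WT and none in HM cells, and the miR-302 seed gave 3 and 6.

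**Figure D3:**
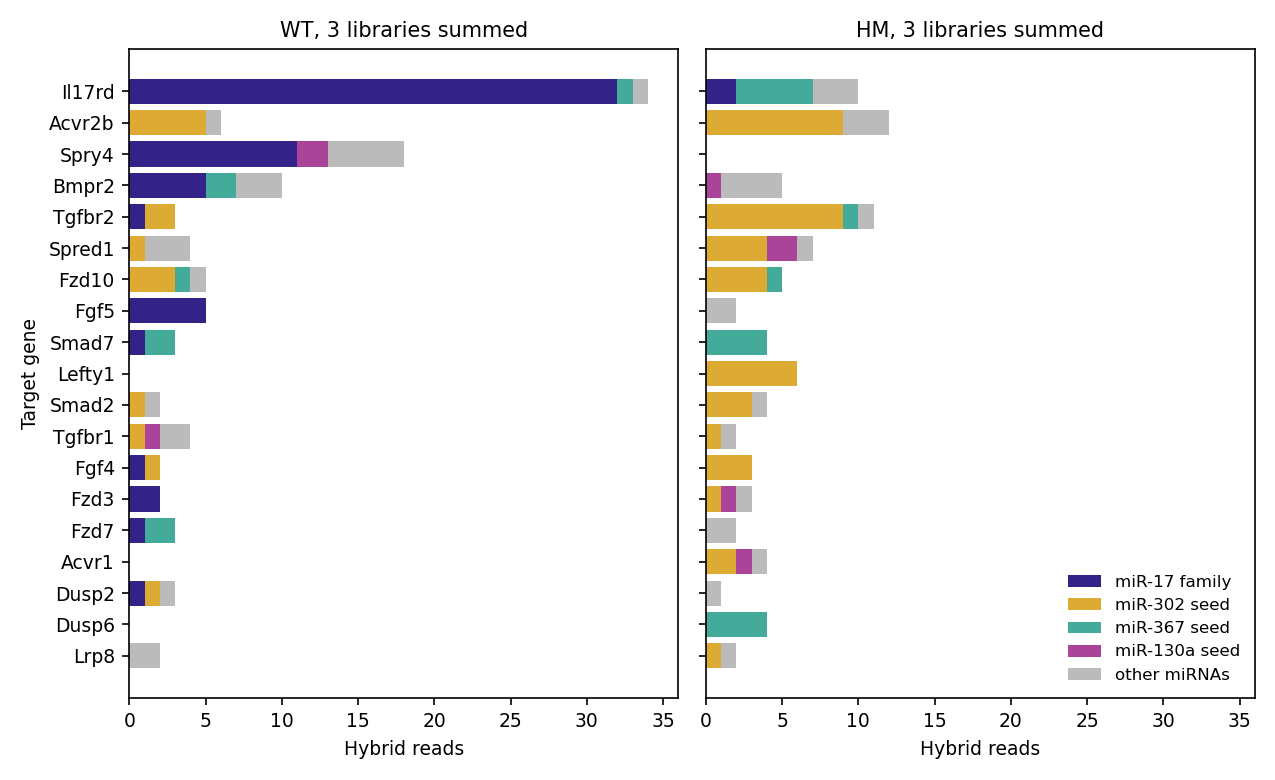
Hybrid reads (x axis, 3 libraries summed) on each signalling gene with at least 4 reads, in WT cells on the left and HM cells on the right, coloured by the seed of the miRNA. The 32 miR-17 family reads on Il17rd and the 11 on Spry4 stand in the WT panel, and in the HM panel only 2 reads of that family remain, both on Il17rd.

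By miRNA, Il17rd and Spry4 set how much of the WT reads on signalling genes fell to the miR-17 family. The family gave 64 of the WT reads, on 13 genes, and 2 HM reads, on 1 gene. That is 53.9% ± 5.37 of WT reads on signalling genes beside 32.2% ± 1.62 on all other genes, and 2.60% ± 2.41 beside 1.70% ± 0.178 in HM libraries. Il17rd held 32 of the 64 WT reads and Spry4 held 11. Over the other 46 genes the family gave 21 of 68 WT reads, or 30.3% ± 7.05 per library, and none of 106 HM reads. The miR-302 seed gave 17 WT reads on 10 genes and 49 HM reads on 16 genes, or 14.7% ± 7.17 and 43.2% ± 15.0 of the reads on signalling genes, beside 19.1% ± 0.286 and 36.6% ± 0.999 on other genes. The miR-367 seed gave 8.38% ± 3.99 and 12.1% ± 4.87, beside 14.1% ± 2.04 and 25.2% ± 1.32 on other genes. The miR-130a seed gave 3 WT and 11 HM reads. The 5p share of reads on signalling genes was 68.6%, 66.7% and 67.7% in WT and 4.76%, 4.84% and 9.09% in HM libraries, and the same share on other genes was 53.4% ± 2.22 and 3.86% ± 0.307. Without Il17rd and Spry4 the signalling genes had 50.5% ± 3.77 in WT and 3.98% ± 3.51 in HM libraries, so their WT excess over other genes rested on these genes.

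**Figure D4:**
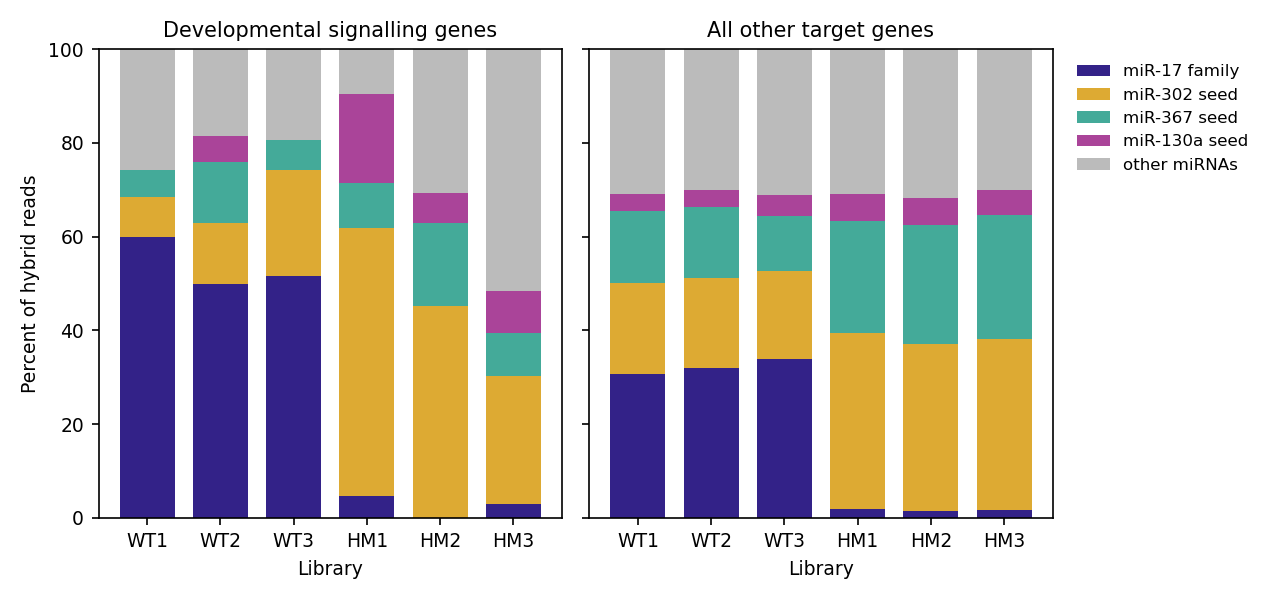
Percent of hybrid reads (y axis) by seed of the miRNA in each library, for the 48 signalling genes on the left and all other target genes on the right. The miR-17 family makes up 53.9% of reads on signalling genes in WT libraries on average and 32.2% on other genes, and in HM libraries the miR-302 seed is the largest of the 4 named classes in both panels.

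Some sites were joined to one seed in WT cells and to another in HM cells. Of the sites on signalling genes, 32 held at least 2 distinct fragments, in 20 genes, and 15 of the 32 had reads in both genotypes. At 10 of these 15 sites the genotypes had a seed in common, with 45 WT and 28 HM reads. The main Il17rd site gave 31 of these WT reads and 2 of these HM reads. At 5 sites the genotypes had no seed in common, with 7 WT and 6 HM reads. These were the second site on Tgfbr2 (miR-93-5p in WT, miR-302b-3p and miR-302d-3p in HM cells), the second on Bmpr2 (miR-93-5p, then miR-301a-3p), the third on Bmpr2 (miR-7a-5p, then miR-300-3p), a site on Fzd3 (miR-17-5p and miR-20b-5p, then miR-27b-3p) and a site on Fzd5 (miR-291a-5p, then miR-300-3p). In the Fzd3 fragments above, the runs that pair with miR-20b-5p and with miR-27b-3p lie 1 base apart. At the Tgfbr2 site they overlap in GCACTT. With 2 or 3 reads a site, none could be tested. Sites were not grouped on other genes, so there is no share over all genes to set beside 5 of 15. At the third Bmpr2 site and the Fzd5 site, the HM side was 1 read of miR-300-3p each, without a match to bases 2 to 7. That strand belongs to the imprinted cluster that the study describes as silenced in the HM line. The WT read at the third Bmpr2 site held no match either.

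A smaller share of hybrids held a seed match on signalling genes than on other genes, in HM cells and over both genotypes together. Only the sequenced fragment was searched, and no test was made. A match to bases 2 to 7 was present in 62.0% ± 5.75 of WT reads and 42.2% ± 8.05 of HM reads on signalling genes, beside 63.8% ± 3.26 and 55.8% ± 1.64 on other genes. By HM library the share was 38.1%, 37.1% and 51.5% on signalling genes, beside 56.8%, 56.7% and 53.9% on other genes. HM library 3 thus showed little difference. The WT value leaned on Il17rd, whose main site held 31 WT reads, all with a match. Over both genotypes the share was 51.7% on signalling genes, 45.3% without Il17rd and 58.9% on other genes. Matches to bases 2 to 8 followed by an A (8mers) were found in 10.8% of WT and 12.9% of HM reads, beside 25.4% and 23.4% on other genes. Matches to bases 2 to 7 followed by an A made up 31.7% of WT reads on signalling genes, and over both genotypes 32 such reads were on Il17rd. A fragment without a match says only that these letters are not in the sequenced piece, which was 20 to 65 bases long with a median of 24.

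The GCTCTT form of the miR-302 site was singled out after its values were seen. Of 66 reads on signalling genes that joined a miRNA of the miR-302 seed, 28 (42.4%) held GCACTT, and 17 (25.8%) held GCTCTT without GCACTT, 12 on Acvr2b, 4 on Lefty1 and 1 on Dusp2. On other genes, 45.1% of 4612 such reads held GCACTT and 415 (9.0%), on 159 genes, held GCTCTT without it. Acvr2b had 14 reads of this seed, 12 of them with GCTCTT, and its largest site held 9 reads. The higher share on signalling genes thus rested mostly on 1 gene. Fragments joined to miRNAs of other seeds held GCTCTT without GCACTT in 0 of 170 reads on signalling genes, which allows up to 1.76%, and in 0.932% of reads on other genes. Only the strand as sequenced was searched.

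Further genes of the 4 pathways that the naming rule does not take, 196 in all, were listed as a frame, and 78 of them had a hybrid. Of the 12 with enough reads, edgeR called none, none had an unadjusted p under 0.05 and DESeq2 called none. Skil, a repressor of Smad activity, had 9, 6 and 5 reads across WT and 9, 19 and 12 in HM libraries (log2 fold change 0.29). Tgif1, another corepressor of Smads, had 6, 5 and 0 against 3, 17 and 4. Znrf3, a ubiquitin ligase that removes Frizzled receptors, had 3, 5 and 3 against 1, 4 and 1 (log2 fold change -1.54, edgeR adjusted p = 0.214). In the RAS-ERK list the smallest adjusted p was 0.324 (edgeR), for the adaptor gene Crk. In the NOTCH list 12 of 40 genes had a hybrid, and none reached 10 reads.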

How the data were processed

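Read counts per hybrid sequence and library were used as deposited, without any scaling by the authors. The authors named miRNAs with QuagmiR, aligned target fragments with Bowtie2 to 3′ UTRs of coding genes and kept hybrids that TargetScan predicts. The build used, the release of either mapping tool and the treatment of duplicate reads and of fragments that map to several genes are not given in the sources used here, so reads may not be independent molecules and fragments outside 3′ UTRs are missing. No coordinates are given.

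Groups came from the sample titles. Read counts were summed per library and gene, gene and seed, or gene and miRNA, over the whole table. Features with at least 10 reads were tested with edgeR 4.0.16 (R 4.3.3; glmQLFit, glmQLFTest), library size the total of all hybrids (of 3p hybrids for the 3p test), Benjamini-Hochberg adjustment over all features and a threshold of 0.05. DESeq2 1.42.0 was an alternative. Seeds were bases 2 to 8 of the RefSeq mature strand for 255 of 298 miRNAs and of the most common deposited sequence otherwise, which equalled RefSeq in 222 of the 255. Of the 48 symbols, 46 matched RefSeq (GRCm38.p6), the exceptions being Fgf19 and Notch2nl. Counts were also simulated with a fixed spread that was not estimated from these libraries. In them, 4-fold changes were recovered for 41.9% of 86 changed genes, with 0 false calls. Recovery was 21.5% for genes among 3p hybrids and 48.3% for gene and seed combinations, with 1 false call each. For gene and miRNA pairs it was 17.1%, with 0 false calls.

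The genes, pathway lists and rules were chosen with earlier results of these data known. Named were all signalling genes with at least 10 reads, inhibitors with at least 5, Il17rd, Nodal, the leading gene of each pathway and up to 4 further genes per list. Other genes with fewer reads are given as part of their family. P-values measure the spread between the replicates of each genotype.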

Additional observations from a re-analysis of the deposited data

How the results depend on the processing

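Il17rd was called lower under all 15 alternatives (log2 fold change -3.95 to -2.31) and Spry4 under all 12 in which it had enough reads. The number of signalling genes called went from 2 to 1 (Il17rd) with at least 30 reads, with seed-matched hybrids only and without WT replicate 2, where Spry4 was not tested, and was 1 to 2 when a library was left out. Gene and seed combinations went from 2 to 1 with at least 30 reads, with seed-matched hybrids only and without any 1 WT library (1 to 2), where Spry4 with the miR-17 family had too few reads to test. Il17rd with miR-20b-5p stayed called wherever it was tested, which it was not at 30 reads or without WT replicate 2. Scaling to 3p hybrids moved the median of all genes from 0.27 to -0.75, and Bmpr2 was then called lower (-2.66, edgeR adjusted p = 0.0129), making 3. All-gene calls were 57, against 14 with DESeq2, 23 with no minimum, 17 at 30 reads, 34 with the replicate block, and 25 to 46 with a library left out. Replicate numbers did not pair the libraries (same-number correlations -0.06, -0.01 and -0.04), and the block left 2 genes, 2 seed combinations and 1 pair called. The share difference of -0.81 points was -1.03 with seed-matched hybrids, -0.33 without Il17rd and -0.041 without Il17rd and Spry4, the last chosen after seeing the data. The 5p difference of -61.4 points was -68.0, -51.9 and -46.6 there.

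Signs that did not hold belong to genes that were not called. Acvr2b (0.27) was -0.74 with 3p totals and -0.26 to 0.77 with a library left out. Spred1 (0.03) was -0.96 with 3p totals, -0.21 with DESeq2, -0.31 with the replicate block and -0.49 to 0.30 with a library left out. Among 3p hybrids, Acvr2b (-0.49) was 0.52 with the total of all hybrids and -1.07 to 0.35 with a library left out. Acvr2b with the miR-302 seed (0.12) was -0.89 with 3p totals, -0.18 with TMM, -0.039 with HM libraries 1 and 2 as 1 library (chosen after seeing the data) and -0.54 to 0.92 with a library left out. The cause was not tested. At these depths, 41 of the 48 genes had too few reads to test, and for them no difference between genotypes was detectable.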

Other observations

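miR-300-3p, a strand of the imprinted cluster on chromosome 12, joined 4 signalling genes in HM cells, Nodal, Bmpr2, Fzd5 and Acvr1b, with 1 read each and none in WT cells. It is 1 strand of that cluster, and reads of the cluster's other strands were not summed here, so nothing follows for the cluster as a whole. The study left miRNAs of this cluster out of most of its main figures because the cluster was silent in the HM clone. The exclusion as stated does not cover the figure with its CLASH results. The 4 reads are 3.45% of the HM reads on signalling genes, and on other genes the strand had 0.139% of WT and 0.269% of HM reads. Of the 4 reads, 3 came from HM library 2. The strands miR-17-3p and miR-20b-3p, which lie opposite the 5p strands of the miR-17 family, had 4 reads on 3 signalling genes (Il17rd, Acvr2b and Bmpr1b) in HM cells and none in WT cells, or 3.45% of HM reads beside 4.75% on other genes. miR-19a-3p and miR-19b-3p had 1 WT and 3 HM reads on 4 signalling genes. These counts are too small for a test.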
